A study of Homo sapiens with 3 samples.

Results

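The epidermal differentiation complex is the gene cluster on the long arm of chromosome 1 that encodes the S100, filaggrin-like, late cornified envelope (LCE) and small proline-rich (SPRR) proteins together with involucrin and loricrin. Its binding by p63 and ZNF148 was taken as every peak row whose summit lay between 151.9 and 153.7 Mb of chromosome 1 in hg19, a stretch of 1.8 Mb. This gave 41 of 21708 p63 summits and 44 of 39462 ZNF148 summits on chromosomes 1 to 22 and X. The peaks come from chromatin immunoprecipitation followed by sequencing in untreated FaDu cells, an established line from a pharyngeal squamous carcinoma, with 1 library made with an anti-ΔNp63α antibody and 1 with an anti-ZNF148 antibody. An input library from the same untreated cells, made without antibody, is the third sample. With 1 peak list per antibody there is no replicate error, no test and no p-value, and the read depth behind the peaks is unknown. The limits were fixed by position and not by the peaks inside, but the region was chosen with earlier results of these lists known.

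Many genes of the complex are switched on as keratinocytes leave the basal layer of a stratified epithelium. Involucrin, loricrin, the SPRR and the LCE proteins are crosslinked into the cornified envelope, and filaggrin gathers the keratin filaments of the dying cell. ΔNp63α is the form of p63 that maintains basal keratinocytes, and p63 is known to act on this cluster in the epidermis, in part through the chromatin organiser SATB1. ZNF148, also called ZBP-89, has Krüppel-type zinc fingers with a preference for GC-rich sites.

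Along the chromosome, RefSeq places 63 protein-coding genes from S100A10 to S100A1. S100A10 and S100A11 come first, on the side of the centromere. They are followed by 7 filaggrin-like genes from TCHHL1 to CRNN, 19 LCE genes from LCE5A to LCE7A, IVL, 11 SPRR genes from SPRR5 to SPRR2G, LORICRIN and the other S100 genes from S100A9 to S100A1 on the side of the telomere. That order is from GRCh38.p14 and the peaks are in hg19, so no peak below is assigned to a gene.

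The promoter sequences of these genes differ in base composition, and 4 of them are shown because the letters make the contrast visible. S100A6 was picked from the GC-rich end of the S100 genes and is not typical of them. Each is the 100 bases just before the transcription start, 5′ to 3′ on the strand of the gene, from RefSeq in GRCh38.p14. Capitals mark GGGCGG, the core of the GC box, on either strand and, in the 50 bases before the start, TATAAA, the core of the TATA box. The stretches are chr1:153535992-153536091 on the minus strand for S100A6, a calcium-binding protein, chr1:152686023-152686122 on the plus strand for LCE2B, chr1:153057513-153057612 on the minus strand for SPRR2A and chr1:152908446-152908545 on the plus strand for IVL, which encodes involucrin.
S100A6: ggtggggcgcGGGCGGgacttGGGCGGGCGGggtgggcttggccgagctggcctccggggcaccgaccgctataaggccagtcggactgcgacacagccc
LCE2B: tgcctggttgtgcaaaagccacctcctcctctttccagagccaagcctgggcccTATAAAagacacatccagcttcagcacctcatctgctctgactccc
SPRR2A: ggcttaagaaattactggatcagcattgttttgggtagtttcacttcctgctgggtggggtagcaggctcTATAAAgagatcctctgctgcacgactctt
IVL: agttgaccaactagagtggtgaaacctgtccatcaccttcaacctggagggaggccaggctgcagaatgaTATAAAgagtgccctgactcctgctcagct

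The S100A6 stretch held 3 GC boxes, the last pair overlapping, and 11 CG dinucleotides, and 76% of its bases were G or C. The SPRR2A and IVL stretches held no GC box and 1 and 0 CG dinucleotides, with a TATA box that began 30 bases before the start in both. At the same distance S100A6 has tataag, which differs from TATAAA in its last base. Only exact matches were marked and counted, so S100A6 is not shown to lack a TATA-like element. In LCE2B the TATA box began 46 bases before the start.

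Against all protein-coding starts, the lists of envelope and filaggrin-like genes were poor in GC boxes and rich in TATA boxes. In the 250 bases before the start, none of the 35 starts of the filaggrin-like, LCE, SPRR, IVL and LORICRIN genes held GGGCGG on either strand, against 53.7% of all 22199 protein-coding starts in the table. TATAAA lay in the 50 bases before 19 of the 35 starts, or 54.3%, against 3.27% of all starts. Their G + C content was 30.8 to 58.8% with a median of 50.4%, and the median of all starts was 62%. Within the lists, TATAAA was present at 7 of 8 SPRR starts, 5 of 7 filaggrin-like starts and 6 of 18 LCE starts. The list of other genes of the complex and its edge was mixed, with GGGCGG at 3 of 9 starts (THEM4, PGLYRP3 and PGLYRP4) and TATAAA at 2.

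S100 promoters were mixed. Of 23 S100 starts from 16 genes, 7 held GGGCGG (30.4%, against 53.7% of all starts) and 7 held TATAAA (30.4%, against 3.27%). Their G + C content ranged from 49.2 to 71.2% with a median of 58.8%, against 62% for all starts. Each value differed from that of all starts in the same direction as in the envelope and filaggrin-like lists, but by less. S100A10 and S100A6 were at the high end, each with 24 CG dinucleotides in 250 bases. The calgranulin genes S100A8, S100A9 and S100A12, which encode proteins of inflamed epithelium, had 1 to 4. The median of the S100 list was 4, so such low counts are not particular to them. A pair of CNNG with 6 bases between them, the core of the sites to which p53 family proteins bind, occurred on either strand at 21 of the 35 starts (60%), at 17 of the 23 S100 starts (73.9%) and at 75.5% of all starts, so this loose pattern separates little. A match in these windows is a description of letters and shows no binding. The tables held promoters for 34 of the 39 listed symbols of the envelope and filaggrin-like genes and for 16 of 17 S100 symbols, and genes with several starts count once per start.

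**Figure D1:**
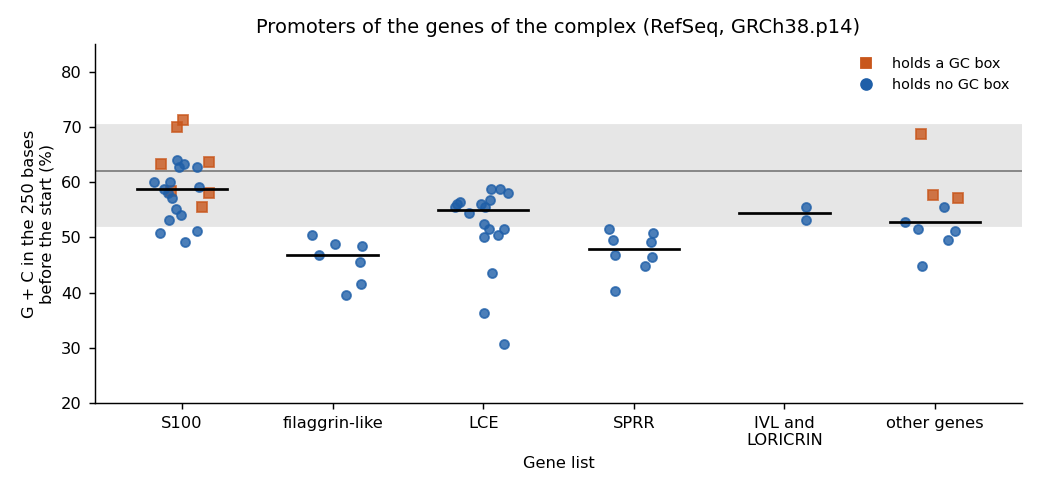
G + C content (percent, vertical axis) of the 250 bases before each RefSeq start, by gene list; squares hold the GC box core on either strand, circles do not, black bars are list medians, and the grey band and line are the quartiles (52 and 70.4%) and median (62%) of all protein-coding starts. Squares appear in the S100 list (7 of 23 starts) and among the other genes (3 of 9), and in none of the 4 lists between them.

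p63 summits were dense in the complex. There were 22.8 per Mb (95% exact Poisson interval 16.3 to 30.9, which covers counting error only), or 1 in every 43.9 kb. The 2 Mb on the side of the centromere, from 149.9 Mb, held 19 p63 summits (9.50 per Mb, 5.72 to 14.8) and the 2 Mb on the side of the telomere, to 155.7 Mb, held 30 (15.0 per Mb, 10.1 to 21.4). The density in the complex was thus 1.86 times that of both flanks together and 3.09 times that of all chromosomes, and its interval overlapped that of the telomeric flank but not that of the centromeric one.

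Set against the flanks, ZNF148 ran the other way. Its 44 summits in the complex were 24.4 per Mb (17.8 to 32.8), against 77 in the centromeric flank (38.5 per Mb, 30.4 to 48.1) and 112 in the telomeric flank (56.0 per Mb, 46.1 to 67.4). The flanks together, at 47.25 per Mb, were 1.93 times as dense as the complex. All chromosomes had 13.4 ZNF148 summits per Mb, so the complex is sparse in ZNF148 only beside flanks that are themselves dense. The complex was 1.83 times as dense in ZNF148 as all chromosomes, but that excess rests on its last 200 kb. Without them it had 15.6 ZNF148 summits per Mb (10.1 to 23.1), or 1.17 times the density of all chromosomes, and 22.5 p63 summits per Mb, or 3.06 times. The telomeric flank was uneven too, and no part of it was left out. Its 200 kb segments that began 3000 and 3200 kb from the start of the complex held 38 and 22 of its 112 ZNF148 summits. The median segment of 200 kb held 7.5 ZNF148 summits in the telomeric flank, 6 in the centromeric flank and 2 in the complex.

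Of the 85 summits of both lists in the complex, 48.2% were p63 summits (95% Wilson interval 37.9 to 58.7%). The share was 19.8% of 96 in the centromeric flank (13.05 to 28.9%) and 21.1% of 142 in the telomeric flank (15.2 to 28.6%). Over all chromosomes it was 35.5%, between the shares of the flanks and that of the complex. The difference from the flanks thus includes their high ZNF148 density. List lengths depend on each library, so the difference between places within the same lists is the comparison, not the share itself.

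Set among 1624 windows of the same width along the genome, the complex stood near the top for p63. The median window held 12 p63 summits (quartiles 7 and 18), and 9 windows, the complex included, held 41 or more. For ZNF148 the median was 16 summits (quartiles 9 and 29), and 224 windows held 44 or more. Windows rich in p63 were usually richer still in ZNF148: the 78 windows with at least 30 p63 summits held a median of 79.5 ZNF148 summits. Part of this is list length, with 1.82 ZNF148 summits for each p63 summit over all chromosomes. In these 78 windows the p63 share ranged from 12.6 to 55% with a median of 30.6%, and 6 windows, the complex included, had a share as high as the complex. That rank holds only among windows rich in p63. Windows with fewer p63 summits had shares of up to 100%, and the share was not ranked among all 1624. Windows of 1 library are not replicates, and this is a description of rank.

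**Figure D2:**
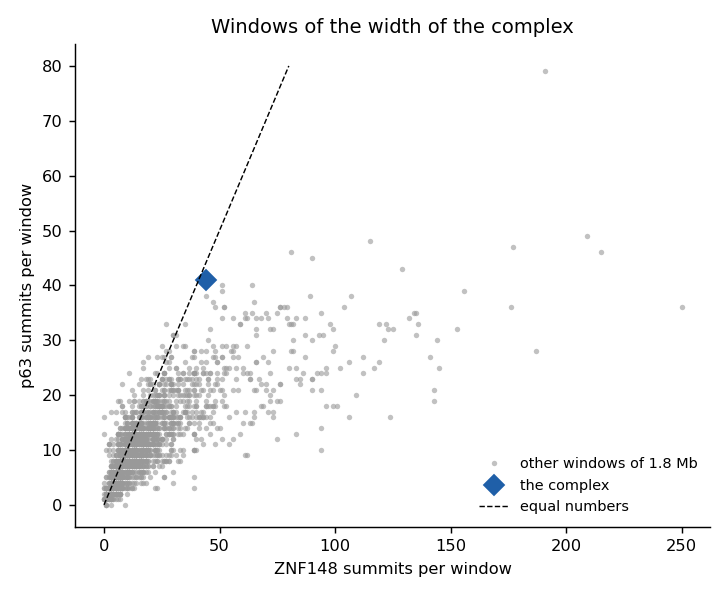
p63 summits (vertical axis) against ZNF148 summits (horizontal axis) in 1624 windows of 1.8 Mb with a summit; the blue diamond is the complex, with 41 p63 and 44 ZNF148 summits, and the dashed line marks equal numbers. The complex lies just below that line, while most windows with many p63 summits lie far to its right.

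The ZNF148 summits gathered at the ends of the complex, and p63 summits were spread along it. In 9 segments of 200 kb, p63 had 5, 5, 5, 1, 7, 5, 3, 5 and 5 summits from the centromeric to the telomeric side. ZNF148 had 8, 0, 1, 4, 2, 2, 2, 6 and 19. The last segment alone held 19 of the 44 ZNF148 summits and 5 of the 41 p63 summits. As background from the gene order above, S100 genes lie towards both ends of the complex, and filaggrin-like, LCE and SPRR genes lie between them.

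The 1.4 Mb between the first and the last segment held 31 p63 and 17 ZNF148 summits, a p63 share of 64.6% (50.4 to 76.6%). Without the last segment, the complex held 36 p63 and 25 ZNF148 summits, and the p63 share was 59.0% (46.5 to 70.5%), against 48.2% with it. Both parts leave out segments with the most ZNF148 summits, and were formed after those counts were seen. A higher p63 share follows from that choice, and the intervals do not test it. p63 had more summits than ZNF148 in 5 of the 9 segments of the complex and in 2 of the 20 segments of the flanks. In the centromeric flank that was so in 0 of 10 segments.

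**Figure D3:**
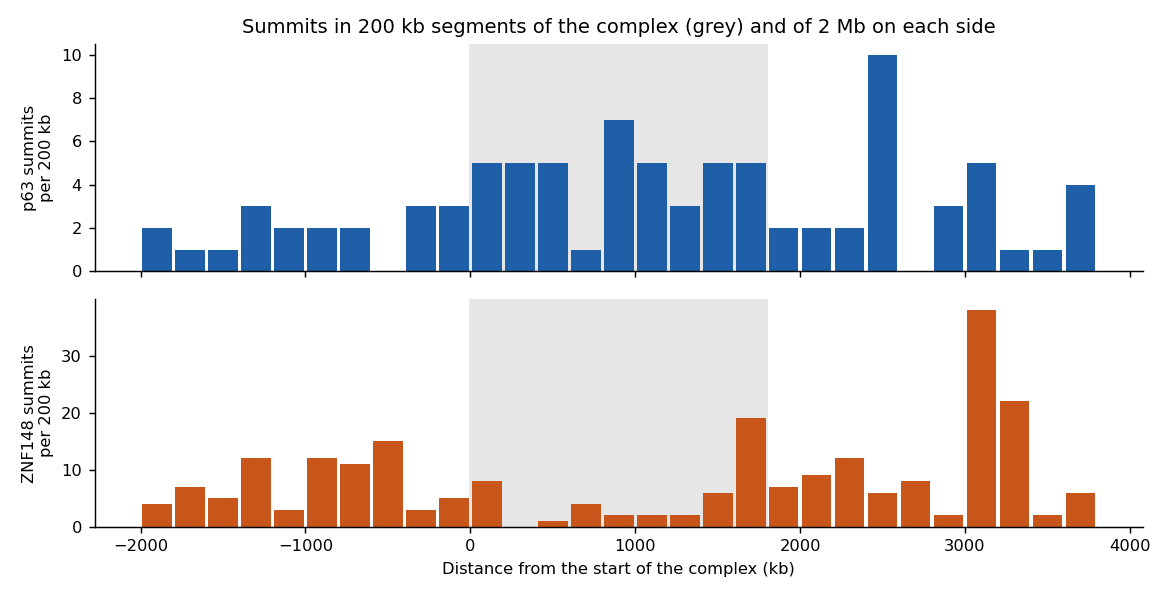
Number of p63 summits (upper panel) and ZNF148 summits (lower panel) in segments of 200 kb, by distance in kb from the start of the complex, which is shaded grey; each bar is 1 segment of 1 library. p63 bars reach 7 inside the complex and 10 outside, and ZNF148 bars fall to 0 to 8 over the first 8 segments of the complex before reaching 19 in the last and 38 in the telomeric flank.

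p63 peaks in the complex were of ordinary to slightly greater strength. The fold enrichment as deposited, meaning signal at the summit divided by the local background, had a median of 14.1 (quartiles 9.42 and 24.7, range 4.54 to 50.8). All p63 summits had a median of 13.2 (8.39 and 24.3), and the centromeric and telomeric flanks 11.6 and 14.6. Of the 41 summits, 15 had a fold of 20 or more (36.6%, 23.6 to 51.9%), against 32% of all p63 summits. A fold of 10 or more was reached by 29 (70.7%), against 64.9% of all. Both intervals include the value of the whole list. By q value, 4 of 41 were in the top 10% of the p63 list. The number of p63 peaks in the complex was thus above that of the whole list per Mb. A difference in their height was not shown, and 41 peaks are too few to exclude one.

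The most significant p63 peak of the complex, at chr1:152140285-152140615, had a fold of 50.8 and a −log10 q of 231, which places it in the top 2.88% of its list. A weak second peak followed 323 bp on, at chr1:152140661-152140852, with a fold of 5.37, the least significant p63 member. The nearest ZNF148 summit was 119 kb away from the stronger of the pair. A further 3 p63 peaks lay within 29.1 kb of the first, at chr1:152155432-152155881 (fold 46.8), chr1:152163811-152164153 (fold 24.5) and chr1:152169443-152169635 (fold 7.39). This run of 5 p63 summits lay in a segment with 0 ZNF148 summits.

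The second most significant, at chr1:152758509-152758812, had a fold of 50.7 and lay 62.4 kb from ZNF148. A peak at chr1:152732306-152732578 (fold 37.3) stood 26.2 kb before it, and one at chr1:152783615-152783873 (fold 24.7) 25.1 kb after it. These belong to the segment with 7 p63 summits, the most in the complex, which also held 2 ZNF148 summits of fold 6.88 and 9.66.

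The other members among the 10 most significant p63 peaks were spread from end to end. They lay at chr1:151996596-151996957 (fold 35.9), chr1:152339897-152340211 (fold 35.3), chr1:152945019-152945294 (fold 35.3), chr1:153498647-153498943 (fold 37.5), chr1:153539994-153540400 (fold 18.2) and chr1:153587941-153588253 (fold 34.9). Of the 10, 3 overlapped a ZNF148 peak, namely the first named here and the last pair. Over the whole p63 list the share was 21.4%, and 10 members are too few to differ from it. The strongest p63 peaks were also the longest, with a median of 297 bp for the 15 with a fold of 20 or more and 194 bp for the 12 with a fold under 10.

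The p63 summits left 6 gaps of more than 100 kb in the complex. The longest was 215 kb, between the summits at 152475488 and 152690912, in peaks of fold 11.5 and 18.8, and 3 ZNF148 summits with folds of 6.49 to 15.9 lay inside it. The longest p63-free stretches of the flanks were longer, at 348 and 340 kb. For ZNF148 the longest empty stretch of the complex was 393 kb, from 152021049 to 152413964, against 147 and 169 kb in the flanks. That ZNF148-free stretch held 9 p63 summits with folds of 5.37 to 50.8. The outermost p63 members had folds of 9.08, at chr1:151960953-151961212, and 11.03, at chr1:153678195-153678387, and the outermost ZNF148 members 12.7, at chr1:151920336-151920618, and 12.99, at chr1:153669762-153669980.

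**Figure D4:**
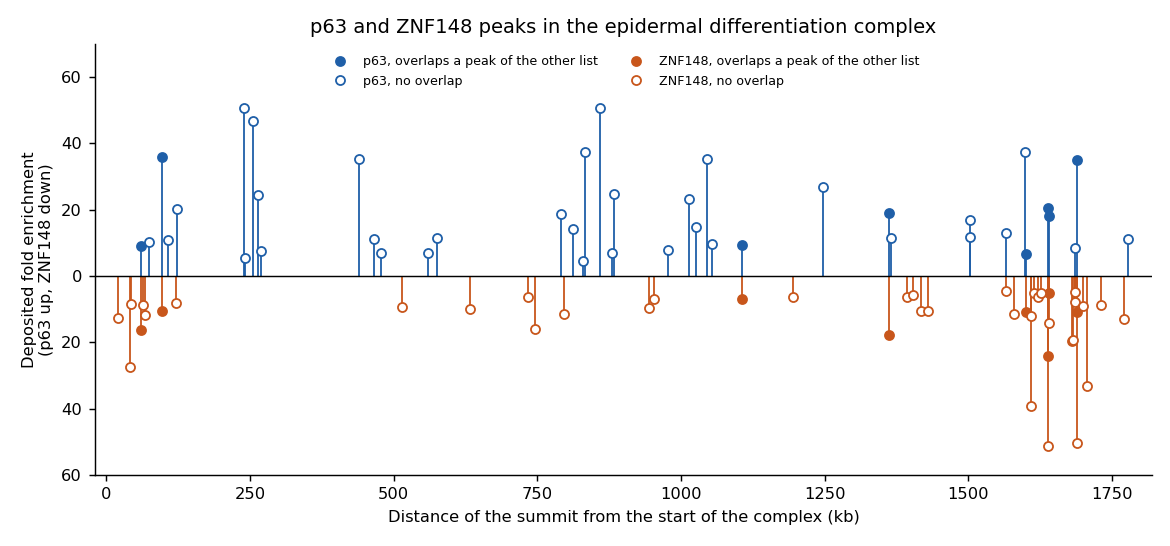
Deposited fold enrichment of each p63 peak (blue, upward) and each ZNF148 peak (orange, downward) against the distance of its summit in kb from the start of the complex; filled circles overlap a peak of the other list. The 41 p63 summits run through the whole stretch, and the tall ZNF148 peaks stand at the ends, with folds up to 51.3 in the last 200 kb.

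ZNF148 peaks of high fold were found at the ends of the complex. Over the complex their median fold was 10.5 (quartiles 6.86 and 14.6), against 10.0 for all ZNF148 summits. A fold of 20 or more was reached by 6 of 44 (13.6%, 6.40 to 26.7%), against 19.6% of all ZNF148 summits, and a fold of 10 or more by 24 (54.5%, 40.1 to 68.3%), against 50.1% of all. Of the 6, 5 lay in the last 200 kb and 1 in the first. None of the 17 between those segments reached it (0%, interval 0 to 18.4%), and the highest fold there was 17.7. That stretch was chosen after its ZNF148 peaks were seen, so the interval is no test. In the same stretch 11 of 31 p63 summits had a fold of 20 or more (35.5%, 21.1 to 53.1%), near the 32% of all p63 summits.

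The 5 most significant ZNF148 members were at chr1:153538928-153539351 (fold 51.3, top 2.24% of its list), chr1:153588687-153589041 (fold 50.5), chr1:153508568-153509119 (fold 39.2), chr1:153606838-153607128 (fold 33.1) and chr1:151940905-151941231 (fold 27.5). The third of these intervals carried a second summit of fold 12.1, and it was the only interval of the complex with more than 1 row. Summits of ZNF148 followed each other closely at the telomeric end, with 10 over 41.1 kb from 153499786 and 8 over 26.2 kb from 153580810. None of the 5 overlapped a p63 peak, against 11.9% of all ZNF148 summits, and 5 members are too few to differ from that share. A p63 summit lay 1.06 kb from the first and 0.752 kb from the second.

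The share of p63 peaks that overlapped ZNF148 peaks was near that of the whole list. In the complex 8 of 41 p63 summits lay in a peak sharing 1 bp or more with a ZNF148 peak (19.5%, 10.2 to 34.0%), against 21.4% of all p63 summits. In the flanks these were 0 of 19 on the centromeric side (interval to 16.8%) and 7 of 30 on the telomeric side (23.3%, 11.8 to 40.9%). From the side of ZNF148, 8 of 44 summits overlapped a p63 peak (18.2%, 9.51 to 32.0%), against 11.9% of all ZNF148 summits, a value inside the interval. In the flanks this share was lower: 0 of 77 ZNF148 summits overlapped a p63 peak on the centromeric side (interval to 4.75%) and 10 of 112 on the telomeric side (8.93%, 4.92 to 15.7%). Over both flanks it was 10 of 189 (5.29%, 2.90 to 9.46%), an interval that ends just short of that of the complex. The interval of the telomeric flank alone overlaps that of the complex. This share was not recomputed under other settings. The flanks also have more ZNF148 and fewer p63 summits per Mb, and their part in this difference was not tested.

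The summits of overlapping peaks stood some way apart. No p63 summit of the complex had a ZNF148 summit within 25 bp (0 of 41, interval to 8.57%), against 13.5% of all p63 summits. The 8 shared summits were 27 to 214 bp from their ZNF148 partner with a median of 75 bp, 5 of them within 100 bp, and over the genome the median for shared summits was 16 bp. The lack of summits within 25 bp is not particular to the complex: of the 78 windows with at least 30 p63 summits, 25 had none, the complex included, and the flanks had 1 of 49.

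The closest pair was the p63 peak at chr1:153587941-153588253 (fold 34.9), whose summit lay 27 bp from that of a ZNF148 peak of fold 10.8. The p63 peak at chr1:153539994-153540400 (fold 18.2) followed, at 33 bp from a ZNF148 summit of fold 5.20. At 39 bp stood a p63 peak of fold 6.60, chr1:153499580-153499851, with a ZNF148 fold of 10.8. All 3 are towards the telomeric end, where ZNF148 is dense.

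Further towards the middle of the complex, 2 sites had summits under 100 bp apart. At chr1:153261092-153261381 p63 had a fold of 18.9 and ZNF148 of 17.7, with summits 55 bp apart, and at chr1:153005507-153005761 the folds were 9.42 and 6.82 with summits 95 bp apart. The other shared sites had summits 133 to 214 bp apart, at chr1:153537965-153538215 (p63 fold 20.5, ZNF148 fold 24.1), chr1:151960953-151961212 (9.08 and 16.2) and chr1:151996596-151996957 (35.9 and 10.4). Folds of the 2 lists are set side by side here as each list's own value, since depth and background differ between libraries.

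Without overlap, 3 more p63 summits had a ZNF148 summit within 1 kb, at distances of 245, 413 and 995 bp. They were in peaks at chr1:153465922-153466133 (fold 12.97), chr1:153584645-153584870 (fold 8.49) and chr1:153498647-153498943 (fold 37.5). This made 11 of 41 within 1 kb (26.8%, 15.7 to 41.9%), against 26.6% of all p63 summits.

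Most p63 summits of the complex stood far from ZNF148, as did most of the whole p63 list. More than 10 kb separated 25 of 41 from the nearest ZNF148 summit (61.0%, 45.7 to 74.3%), against 52.2% of all p63 summits and 22 of 49 in the flanks (44.9%, 31.9 to 58.7%). These intervals overlap. The median distance was 35.4 kb, against 11.6 kb for all p63 summits and 6.83 kb in the flanks. Between the first and last 200 kb it was 51.8 kb, with 24 of 31 more than 10 kb away (77.4%, 60.2 to 88.6%), and in the last 200 kb it was 0.133 kb with 0 of 5 that far. These parts were chosen after their ZNF148 counts were seen, so the difference in distance between them follows from that choice.

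**Figure D5:**
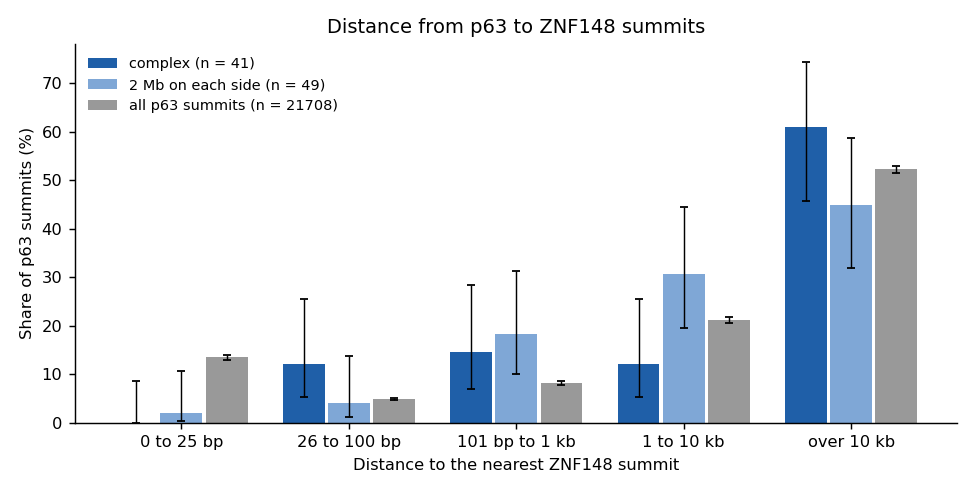
Share of p63 summits (percent, vertical axis) by distance to the nearest ZNF148 summit, for the complex (n = 41), for the 2 Mb on each side together (n = 49) and for all p63 summits (n = 21708); error bars are 95% Wilson intervals. The complex has no summit at 0 to 25 bp and 61.0% over 10 kb.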

How the data were processed

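Peaks were mapped in FaDu cells, with 1 peak list for p63 and 1 for ZNF148, and no list of the input sample was used. Per the submitters' processing notes the tools include Bowtie2 2.3.4.3, SAMtools 1.7, MACS2 2.2.6 and the build is hg19, with no roles or settings named. The DNA came from 3 independent ChIP assays, per the labels' protocols. The control library, duplicate handling and filters are not given in the sources used here. In these files the deposited fold enrichment is a ratio over local background, and the deposited −log10 q ranks peaks within a list; its lowest value was 3.01 (p63) and 3.02 (ZNF148), and sites below that were not listed. Read depth is unknown.

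Each row of chromosomes 1 to 22 and X counted as 1 summit, which left out 214 p63 and 207 ZNF148 rows. Coordinates are 1-based. Shares carry 95% Wilson intervals and densities exact Poisson intervals, for counting error only, with peaks treated as independent. Shared means an overlap of 1 bp. Members described singly were the 10 most significant p63 and 5 ZNF148 summits, pairs within 1 kb, and members beside the longest p63-free stretch and the limits. Runs, segments and printed promoters were chosen after their values were seen. Members and lists were chosen with earlier results of these data known. Functions were tested on simulated lists. Python 3.11.15, pandas 2.3.3 and scipy 1.17.1 were used. Alternatives were stricter q and fold limits, intervals counted once, merged peaks, other limits, flanks and overlap criteria, and lists of equal length.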

Additional observations from a re-analysis of the deposited data

How the results depend on the processing

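Recomputing gave 84 values, of which 75 lay inside the reported value's counting interval (for densities, within 1.5 times of it) and 9 lay outside. With lists of equal length, ZNF148 had 15.0 summits per Mb in the complex and 27.3 in the flanks, and the p63 share was 60.3% and 31.0%; fewer ZNF148 rows enter there by construction. Without the last 200 kb of the complex, chosen after seeing the data, ZNF148 had 15.6 summits per Mb and the p63 share was 59.0%. The share of flank p63 summits shared with ZNF148, 14.3%, was 6.12% with summits within 100 bp and 4.08% with 50% overlap of both peaks. The median ZNF148 fold of the flanks, 10.4, was 14.7 at a −log10 q of at least 10, which drops weak peaks. The p63 share was higher in the complex than in the flanks in 9 of 9 settings, the reported one included. The p63 density of the complex was 1.75 to 1.90 times that of the flanks over 9 settings. The flank density of ZNF148 was 1.60 to 3.02 times that of the complex over 10 settings. The highest ratio came without the last 200 kb of the complex, with no part of the flanks left out. Without replicate lists or read depth, variation between experiments is not measured, and copy number of the region was not tested. No paired analysis was possible because each antibody has 1 list.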
